A study of Mus musculus with 9 samples.

Results

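The unfolded protein response (UPR) genes described here are 10 named genes: *Xbp1*, *Ern1*, *Atf6*, *Atf4*, *Ddit3*, *Hspa5*, *Dnajb9*, *Edem1*, *Sdf2l1* and *Herpud1*. They were taken by gene symbol from the expression values of A/A replicate 1, which list 52550 genes. Each symbol matched 1 gene, and all 10 had reads. In this library of R848-stimulated plasmacytoid dendritic cells (pDCs), *Xbp1*, *Herpud1*, *Hspa5* and *Edem1* had the highest levels of the 10 per kilobase of exon (by the longest transcript *Ddit3* took the place of *Edem1*), and the sensor genes *Atf6* and *Ern1* had the lowest.

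The study asked how an allele of *Ncf1*, a subunit gene of the NADPH oxidase, affects pDC activation. Its mouse RNA-Seq had 9 samples, 3 each from the spleens of G/G (WT), A/G and A/A *Ncf1* knock-in (KI) mice. All 9 were C57BL/6 pDCs, sorted as CD11c-int SiglecH+ PDCA1+ cells and cultured for 12 hours with R848, a TLR7/-8 ligand, so none was unstimulated. The analysis covers A/A replicate 1 alone, and the other 8 samples were not analysed here. No change with genotype or with R848 was therefore computed, and replicate error is unknown throughout. The allele was knocked in through the germline and is not limited to pDCs. The methods give female mice of 10 to 12 weeks for all experiments. In A/A replicate 1, however, the Y-linked gene *Ddx3y* had 102 CPM and *Xist* was listed at 0, so the library did not match that description. All levels below come from this library, and none can be given without it.

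The UPR is the program by which cells answer unfolded proteins in the endoplasmic reticulum (ER). IRE1 (encoded by *Ern1*) cuts an intron out of *Xbp1* mRNA in the cytosol, ATF6 is cleaved in the Golgi to release a transcription factor, and PERK (encoded by *Eif2ak3*) phosphorylates eIF2α, which favours translation of ATF4 and then expression of CHOP (encoded by *Ddit3*). Their targets include chaperones such as BiP (encoded by *Hspa5*) and the machinery of ER-associated degradation (ERAD). pDCs have an extensive rough ER, and XBP1 is known to be required for normal dendritic cell development and for antibody-secreting cells.

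*Xbp1* mRNA is the substrate of IRE1, so the segment that IRE1 removes is shown first, from the GRCm38 reference. It lies in exon 4 of 5 of the transcript Xbp1-201, at chr11:5524279-5524304 on the plus strand. The 26 bases that are cut out are in capitals, between 12 bases of exon on each side.
Xbp1 intron: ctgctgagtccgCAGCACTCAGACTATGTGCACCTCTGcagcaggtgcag
In the reference transcript, the open reading frame has 267 codons with these bases and 371 without them. The deposited value is 1 number for the whole gene, so the spliced and unspliced forms could not be told apart.

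The file held 31408298 reads over 17664 genes (33.6% of those listed), recovered from normalized values. Levels are in CPM, the reads of a gene when the library is scaled to 1000000. Where genes are compared, the level is CPM per kilobase of exon, over all exon bases of the gene in the GENCODE M21 annotation. Percentiles are ranks of that level among the 17632 genes with reads and an exon length, whose median was 1.90 CPM per kilobase. Intervals are 95% Wilson intervals for a level and exact binomial intervals for a ratio. Both cover counting error only and take each read as independent. PCR reads without molecular identifiers do not each stand for 1 molecule, so the intervals may be too narrow even for that. For a gene listed at 0, the Wilson upper limit was 0.122 CPM. A floor of 3 reads, or 0.0955 CPM, was also set, but no gene listed at 0 is given with it.

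The 10 genes together had 138943 reads, or 4424 CPM (95% CI, 4401 to 4447), which was 0.442% of the library. The median level of the 10 was 113 CPM per kilobase, and their median percentile was 97.4. Of the 10, 8 stood above percentile 90, beside 1763 of the 17632 genes with reads. *Xbp1* took 27.2% of the members' reads, *Hspa5* 22.2%, *Edem1* 20.0% and *Herpud1* 12.3%. *Ern1* took the smallest share, 0.399%.

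**Figure D1:**
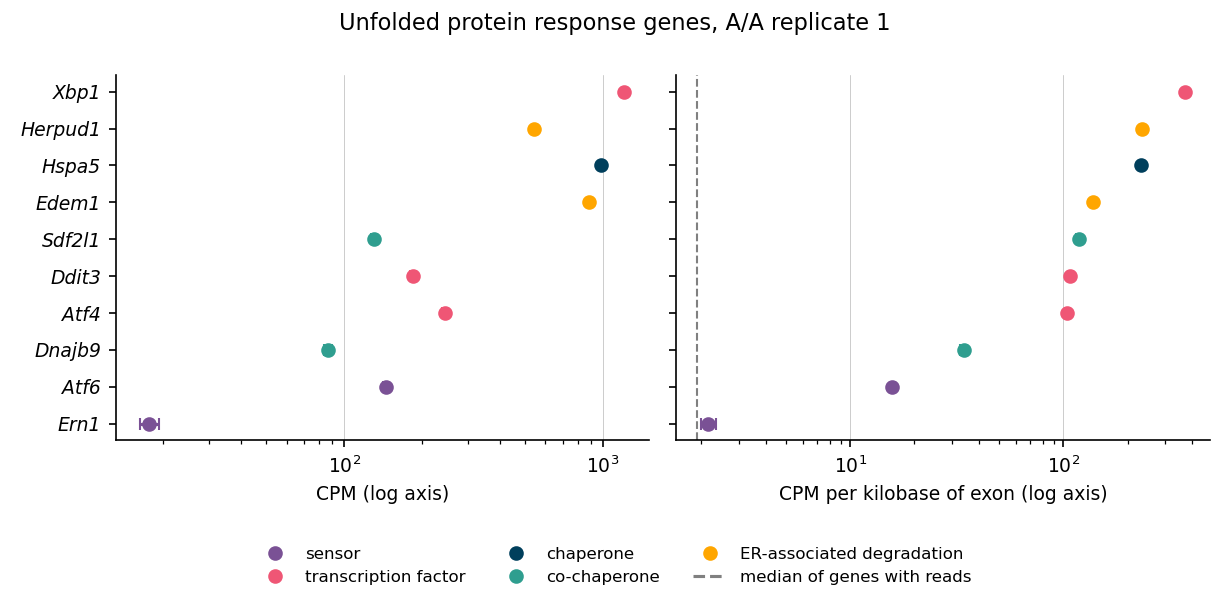
Level of each UPR gene in A/A replicate 1, as CPM (left) and CPM per kilobase of exon (right), both on log axes. Points are coloured by role, bars are 95% counting intervals (mostly narrower than the points), and the dashed line is the median of genes with reads, 1.90 CPM per kilobase. Per kilobase the levels ran from 2.16 for *Ern1* to 370 for *Xbp1*.

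**Figure D2:**
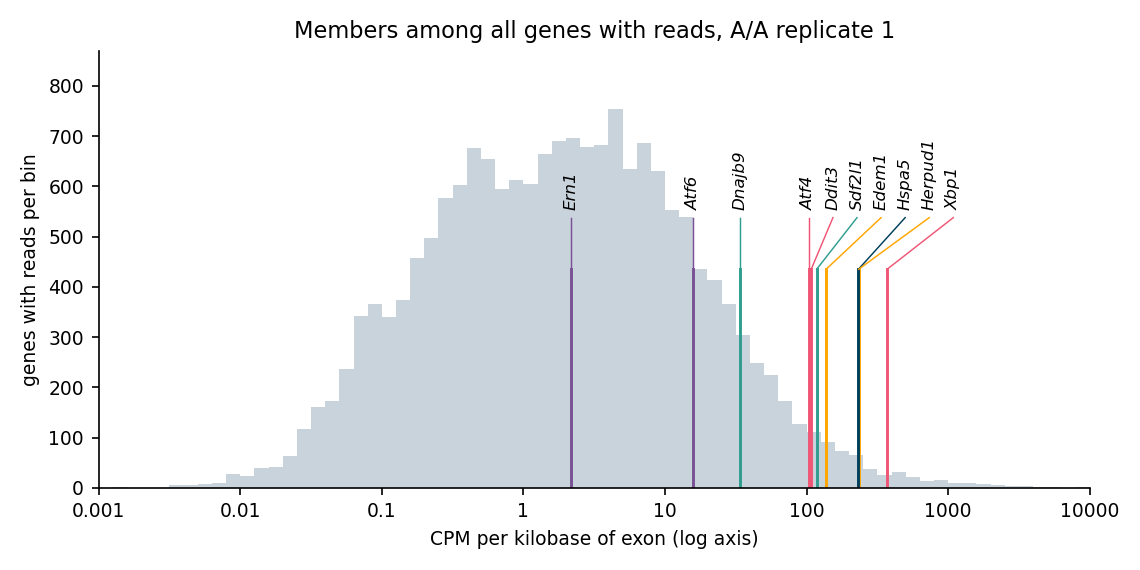
Number of genes with reads (y axis) by level in CPM per kilobase of exon (log x axis) in A/A replicate 1, with the 10 UPR genes marked by lines coloured by role as in the plot of member levels. *Ern1* lies near the middle of the 17632 genes, at percentile 52.2, and 7 members lie above percentile 97.

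Of the sensor genes, *Ern1* had the lower level. *Ern1* (ENSMUSG00000020715.9, chr11:106394650-106487852, minus strand) encodes the kinase and endoribonuclease IRE1α. It had 554 reads, or 17.6 CPM (95% CI, 16.2 to 19.2). On the length scale its level was 2.16 CPM per kilobase (95% CI, 1.99 to 2.35), at percentile 52.2, close to the median gene with reads. This percentile depended on the genes ranked, at 83.9 over all genes and 38.7 among protein-coding genes with reads. *Atf6* (ENSMUSG00000026663.6, chr1:170704674-170867771, minus strand) encodes an ER-membrane precursor of a transcription factor. It had 4565 reads, or 145 CPM, which was 15.7 CPM per kilobase (95% CI, 15.3 to 16.2), at percentile 84.0. The level of *Atf6* per kilobase was thus 7.30 times that of *Ern1* (95% CI, 6.68 to 7.98).

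The sensor genes were also compared with each other and with their paralogs. The PERK gene *Eif2ak3* had 871 reads, at 4.60 CPM per kilobase, and the level of *Ern1* per kilobase was 0.469 times this (95% CI, 0.421 to 0.522). *Ern2*, the IRE1 paralog best known from mucosal epithelium, had 27 reads, and *Ern1* stood 7.44 times higher per kilobase (95% CI, 5.06 to 11.4). *Atf6b*, the paralog of *Atf6*, was the higher of that pair, at 38.4 CPM per kilobase, with *Atf6* at 0.410 times its level (95% CI, 0.392 to 0.428). Among the 13 listed genes for sensors and their processing, all had reads, with a median of 5.34 CPM per kilobase. After *Xbp1*, the highest were *Bloc1s1* (42.7 CPM per kilobase), whose mRNA is a known substrate of IRE1 but whose exon bases lie for 55.9% under exons of another gene on the same strand, and *Traf2* (39.8), an adaptor that binds activated IRE1. The lowest were *Mbtps2* (1.45), the site-2 protease that cleaves ATF6, and *Ern2* (0.290).

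Per kilobase, the 3 transcription factor genes of the 10 were all far above the sensors. By CPM without length they were also higher, but *Ddit3* (185 CPM) and *Atf4* (245 CPM) lay nearer to *Atf6* (145 CPM). *Xbp1* (ENSMUSG00000020484.18, chr11:5520659-5525893, plus strand) encodes the factor made from the spliced mRNA. It had 37769 reads, or 1203 CPM (95% CI, 1190 to 1215). Its level was 370 CPM per kilobase (95% CI, 367 to 374), at percentile 99.2, first of the 10 genes, and 565 CPM per kilobase by the longest transcript. Per kilobase, *Xbp1* stood 172 times above *Ern1* (95% CI, 158 to 187), whose product splices its mRNA, and 3.57 times above *Atf4* (95% CI, 3.48 to 3.66).

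*Atf4* (ENSMUSG00000042406.7, chr15:80255184-80257540, plus strand) encodes the bZIP factor that is translated when eIF2α is phosphorylated. It had 7688 reads, or 245 CPM, which was 104 CPM per kilobase (95% CI, 102 to 106), at percentile 97.1. *Ddit3* (ENSMUSG00000025408.15, chr10:127290774-127296288, plus strand) encodes CHOP, a pro-apoptotic factor of the C/EBP family. It had 5800 reads, or 185 CPM, which was 108 CPM per kilobase (95% CI, 105 to 111), at percentile 97.2. These levels lay close together, with *Ddit3* at 1.04 times *Atf4* per kilobase (95% CI, 1.00 to 1.07). By the longest transcript, which is 969 bases for *Ddit3* against 1713 bases over all its exons, the same ratio was 1.57. *Ddit3* also overlaps other genes. Of its exon bases, 4.73% lay under exons on the other strand and 6.13% under exons of other gene models on its own strand. The overlapping models included another that is also named *Ddit3*. Reads in the same-strand part cannot be assigned by strand. Those in the opposite-strand part cannot be told apart here either, since the use of strand is not known. In addition, 4.38% of its 50-base windows occurred in another gene model, including the neighbouring *Mars*, with 5394 reads.

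Levels along the ATF4-CHOP arm spanned a wide range. The listed genes of the ATF4-CHOP arm and the integrated stress response numbered 34, of which 33 had reads. Their median was 34.5 CPM per kilobase. Of the 34, 19 stood above percentile 90, *Ddit3* and *Atf4* among them, beside 1763 of the 17632 genes with reads. *Atf3*, an ATF4-induced repressor, had 104.9 CPM per kilobase. The ratio of *Atf4* to *Atf3* was 0.990 per kilobase (95% CI, 0.958 to 1.02), and by the longest transcript it was 1.06 (95% CI, 1.03 to 1.10), so the order of these genes depended on the gene model. The highest of the list were *Slc3a2* (287 CPM per kilobase), the heavy chain of amino acid transporters, *Mthfd2* (138), an enzyme of mitochondrial folate metabolism, and *Ddit3* itself. *Ppp1r15a*, which encodes the GADD34 subunit that directs dephosphorylation of eIF2α, had 55.3 CPM per kilobase, and *Trib3*, a pseudokinase gene, had 33.8. Other listed genes were low. *Ddit4*, an inhibitor of mTORC1 signalling, had 30 reads (0.544 CPM per kilobase), the eIF2α kinase gene *Eif2ak4* had 1.78 CPM per kilobase, and the lipoprotein receptor gene *Vldlr* was listed at 0.

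*Hspa5* (ENSMUSG00000026864.13, chr2:34771970-34777547, plus strand) encodes BiP, the Hsp70 chaperone of the ER lumen that holds the sensors inactive. It had 30851 reads, or 982 CPM (95% CI, 971 to 993). Per kilobase its level was 232.3 CPM (95% CI, 229.7 to 234.9), at percentile 98.8. It stood 1.55 times above *Hsp90b1*, the Hsp90 of the ER (95% CI, 1.52 to 1.58). Against Hsp70 genes of other compartments, it stood at 0.734 times the cytosolic *Hspa8* (95% CI, 0.724 to 0.745) and at 7.48 times the mitochondrial *Hspa9* (95% CI, 7.24 to 7.72), all per kilobase. *Hyou1*, which encodes a nucleotide exchange factor of BiP, was far lower, at 945 reads and 4.16 CPM per kilobase, so that *Hspa5* stood 55.8 times above it (95% CI, 52.3 to 59.6).

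The co-chaperone genes were lower than *Hspa5*. *Sdf2l1* (ENSMUSG00000022769.7, chr16:17130138-17132383, minus strand) encodes an ER-resident partner of the J-protein DNAJB11. It had 4098 reads, or 130.5 CPM, which was 118 CPM per kilobase (95% CI, 114 to 121), at percentile 97.5. Its paralog *Sdf2* was lower, and *Sdf2l1* stood 3.91 times above it per kilobase (95% CI, 3.68 to 4.16). *Dnajb9* (ENSMUSG00000014905.4, chr12:44205559-44210326, minus strand) encodes ERdj4, a J-protein that brings BiP to IRE1 and represses it. It had 2724 reads, or 86.7 CPM, which was 34.0 CPM per kilobase (95% CI, 32.8 to 35.3), at percentile 91.5. Of its 50-base windows, 5.50% also occurred in *Gm6568*, which had 6 reads. *Dnajb9* stood at 0.632 times *Dnajb11* per kilobase (95% CI, 0.604 to 0.662), and *Hspa5* stood 6.83 times above *Dnajb9* (95% CI, 6.56 to 7.10).

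Among 34 listed ER chaperones and folding enzymes, 33 had reads, with a median of 31.0 CPM per kilobase. The highest were *Pdia3* (295 CPM per kilobase), a disulfide isomerase gene, then *Hspa5*, then the lectin chaperone gene *Calr* (152), and *Hsp90b1* had 150.0. *Creld2* and *Manf*, which encode secreted proteins of the stress response, had 73.4 and 39.3 CPM per kilobase, and the disulfide isomerase gene *Pdia4* had 55.9. The lowest with reads were the BiP co-chaperone gene *Dnajc1* (2.09) and *Selenom* (0.387), and the prolyl isomerase gene *Fkbp11* was listed at 0. Levels of genes within this list thus spanned the whole range from no reads to percentile 99.1.

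*Herpud1* and *Edem1* act in ERAD, and both were near the top of the 10. *Herpud1* (ENSMUSG00000031770.16, chr8:94386438-94395377, plus strand) encodes an ER-membrane scaffold of the HRD1 ubiquitin ligase complex. It had 17089 reads, or 544 CPM (95% CI, 536 to 552), which was 233.2 CPM per kilobase (95% CI, 229.7 to 236.7), at percentile 98.8. *Edem1* (ENSMUSG00000030104.9, chr6:108828641-108859356, plus strand) encodes a mannosidase-like protein that directs misfolded glycoproteins to degradation. It had 27805 reads, or 885 CPM (95% CI, 875 to 896), which was 137 CPM per kilobase (95% CI, 136 to 139), at percentile 97.8.

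The paralogs of *Edem1* were much lower. Per kilobase, *Edem1* stood 3.06 times above *Edem2* (95% CI, 2.97 to 3.15) and 79.5 times above *Edem3* (95% CI, 71.5 to 88.6), which had 346 reads. All 24 listed ERAD genes had reads, at a median of 23.9 CPM per kilobase. *Herpud1* was the highest, followed by the ATPase gene *Vcp* (171 CPM per kilobase) and *Edem1*. The core subunits of the ligase that HERPUD1 joins were lower, with *Sel1l* at 23.7 and *Syvn1* at 9.69 CPM per kilobase. *Edem3* (1.73) and *Derl3* (1.66), a derlin gene with 104 reads, were the lowest of the list.

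Per kilobase, the order from the highest level was *Xbp1*, *Herpud1*, *Hspa5*, *Edem1*, *Sdf2l1*, *Ddit3*, *Atf4*, *Dnajb9*, *Atf6* and *Ern1*. *Herpud1* and *Hspa5* did not differ beyond counting error, with a ratio of 1.00 (95% CI, 0.985 to 1.02), but by the longest transcript the ratio was 1.04 (95% CI, 1.02 to 1.06). The ratio of *Sdf2l1* to *Ddit3* was 1.09 (95% CI, 1.05 to 1.14), but 0.618 by the longest transcript, so the order of this pair depended on the gene model. By the longest transcript *Ddit3* (190.6 CPM per kilobase) also stood above *Edem1* (145.7), and *Atf4* (121) above *Sdf2l1* (118). The steps at the low end were wide. *Atf4* stood 3.05 times above *Dnajb9* (95% CI, 2.92 to 3.19), and *Dnajb9* stood 2.16 times above *Atf6* (95% CI, 2.06 to 2.27). By CPM without length, the order of *Dnajb9* (86.7 CPM) and *Atf6* (145 CPM) was the reverse. At the top, *Xbp1* stood 1.59 times above *Herpud1* (95% CI, 1.56 to 1.62). No spread over samples stands behind this order.

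The median level in the rest of the pathway was below that of the 10 genes. The other 134 genes of the 5 pathway lists included 131 with reads. Over these, the median was 24.2 CPM per kilobase and the median percentile 88.5. Above percentile 90 stood 58 of them, beside 1763 of the 17632 genes with reads. The fifth list, ER translocation and early secretory traffic, held 39 genes, of which 38 had reads, with a median of 18.7 CPM per kilobase. Its highest were the cargo receptor gene *Tmed2* (174 CPM per kilobase), the translocon subunit gene *Sec61b* (82.7) and *Ssr2* (65.8), a subunit gene of the translocon-associated complex. Its lowest were *Sec63* (3.75) and the COPII coat gene *Sec24a* (1.38), and *Kdelr3*, a receptor gene for returning ER proteins, was listed at 0.

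Chaperones of other compartments gave a scale for the ER genes. The 19 listed cytosolic heat shock genes, 18 with reads, had a median of 34.9 CPM per kilobase, led by *Hsp90ab1* (515), *Hspa8* (316) and *Hsp90aa1* (95.2). *Hsph1* (4.96) and *Hsf1* (3.54), the gene of the heat shock transcription factor, were the lowest with reads, and *Hspb1* was listed at 0. The 11 mitochondrial chaperones and proteases all had reads, and their median was 16.1 CPM per kilobase. They ran from *Hspd1* (35.6), *Hspe1* (34.2) and *Hspa9* (31.1) down to *Yme1l1* (10.3) and *Dnaja3* (6.43). In the ATF and CREB family, 14 of 15 genes had reads, at a median of 3.90 CPM per kilobase. *Atf3*, *Atf4* and *Creb3* (65.8) were its highest, *Creb3l2* (0.590) and *Creb3l3* (0.296) its lowest with reads, and *Creb3l4* was listed at 0.

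**Figure D3:**
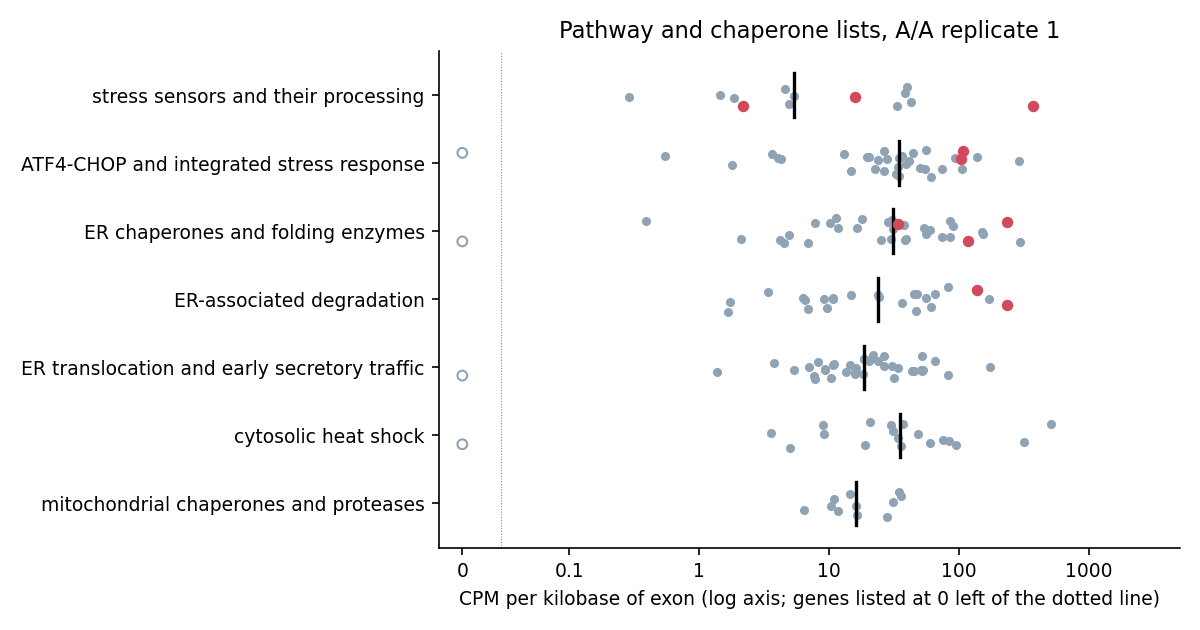
Level of each listed gene in A/A replicate 1, in CPM per kilobase of exon on a log axis, by pathway or chaperone list. Red points are the 10 UPR genes, grey points other genes, open circles genes listed at 0, and black bars list medians over genes with reads. The medians ran from 5.34 for the sensors to 34.9 for cytosolic heat shock, and *Xbp1* lies far to the right of its list.

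The promoters of the members were read for the letters that UPR factors are known to bind. RefSeq windows (GRCm38.p6) from 250 bases before to 50 bases after the annotated start were given for 9 of the 10 members and for 108 of the other pathway genes, and *Atf6* was not among them. The ER stress element (ERSE), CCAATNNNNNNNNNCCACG on either strand, occurred in 39 of 32851 windows (0.119%). It was in 1 of the 9 member windows, that of *Hspa5*, at chr2:34772025-34772043 on the plus strand, bases -65 to -47. A related form with a single base between the parts, ATTGGNCCACG (ERSE-II, searched after the values were seen), occurred in 12 windows (0.0365%). It was in that of *Herpud1*, at chr8:94386377-94386387, bases -52 to -42. The 2 windows are shown because they hold these elements in members with nearly equal levels per kilobase over all exons. By CPM without length the levels were 982 for *Hspa5* and 544 for *Herpud1*, and a link of motif to level was not tested. Both windows are written 5′ to 3′ on the plus strand, at chr2:34771840-34772139 and chr8:94386179-94386478. Capitals mark the fixed letters of the ERSE and the core TGACGTG in *Hspa5*, and the whole ERSE-II, its variable base included, in *Herpud1*.
Hspa5 promoter: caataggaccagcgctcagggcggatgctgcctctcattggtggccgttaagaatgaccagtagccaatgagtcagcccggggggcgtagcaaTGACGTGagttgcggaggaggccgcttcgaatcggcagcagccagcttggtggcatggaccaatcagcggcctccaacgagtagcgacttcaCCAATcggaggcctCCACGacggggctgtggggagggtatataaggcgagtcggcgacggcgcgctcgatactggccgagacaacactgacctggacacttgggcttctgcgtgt
Herpud1 promoter: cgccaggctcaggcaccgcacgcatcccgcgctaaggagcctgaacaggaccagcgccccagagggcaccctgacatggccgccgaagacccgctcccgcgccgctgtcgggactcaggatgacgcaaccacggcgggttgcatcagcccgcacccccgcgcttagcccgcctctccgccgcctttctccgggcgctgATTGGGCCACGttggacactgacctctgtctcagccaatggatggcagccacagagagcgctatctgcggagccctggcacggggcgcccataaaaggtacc
A match is a description of letters, not of a bound site.

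Of the other pathway genes, 8 of 108 windows (7.41%) held the ERSE and 1 held ERSE-II. The elements are shown together so that the fixed letters in capitals and the variable bases in lower case can be compared. Each is written on the strand that carries the motif.
Hspa5 ERSE: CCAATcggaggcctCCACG
Hsp90b1 (distal) ERSE: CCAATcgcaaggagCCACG
Hsp90b1 (proximal) ERSE: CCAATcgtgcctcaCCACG
Calr ERSE: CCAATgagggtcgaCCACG
Canx ERSE: CCAATcaccacgctCCACG
Creld2 ERSE: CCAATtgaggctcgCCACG
Derl3 ERSE: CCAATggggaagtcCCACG
Dnajc3 ERSE: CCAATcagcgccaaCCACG
Pdia6 ERSE: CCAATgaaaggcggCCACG
Syvn1 ERSE: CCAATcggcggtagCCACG
Herpud1 ERSE-II: ATTGGgCCACG
Dnajb11 ERSE-II: ATTGGcCCACG
The genes with these letters ranged widely in level. *Hspa5*, *Hsp90b1* and *Calr* had 232.3, 150.0 and 152 CPM per kilobase, whereas *Syvn1* had 9.69 and *Derl3* 1.66. *Hsp90b1* was the gene with a pair of elements. *Edem3* and *Xbp1* had no ERSE in these windows, which says only that the letters were not in them.

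*Xbp1* is a case where the window mattered. Its RefSeq window held neither CCAAT nor CCACG. When the first 300 bases of the annotated transcripts were searched instead, a choice made after the windows were seen, the ERSE was in 30 of 131058 transcripts (0.0229%) and in transcripts of 2 members, *Hspa5* and *Xbp1*. The element in *Hspa5* is the same as in its promoter window, since Hspa5-201 starts before the RefSeq start and holds it at bases 56 to 74. In Xbp1-201 it lies at chr11:5520906-5520924 on the plus strand, bases 248 to 266 of the transcript and 216 bases past the end of the promoter window.
Xbp1 ERSE in the transcript: CCAATcgcggacggCCACG
This element lies downstream of both the RefSeq and the GENCODE start of *Xbp1*, whereas that of *Hspa5* counts as promoter or transcript by the start used.

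Each of the other stress motifs was in 1 member window. TGACGTG, the core of the UPR element, was in the window of *Hspa5* alone of the 9 (bases -157 to -151), beside 661 windows in all (2.01%). TGATGNAA, a common core of the elements that CHOP and ATF4 bind, was in that of *Herpud1* alone (bases -112 to -105, minus strand), beside 1304 in all (3.97%). It was in 15 of the 108 other pathway windows (13.9%), among them those of *Asns*, *Chac1*, *Trib3* and *Atf3*. Of the parts of the ERSE, CCAAT alone was in 7 of the 9 members and 37.4% of all windows, and CCACG alone in 7 of the 9 and 32.8%. These counts overlap with the full elements. The member windows had a median GC content of 63.3%, from 51% in *Xbp1* to 76% in *Edem1*, beside 52.7% over all windows.

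**Figure D4:**
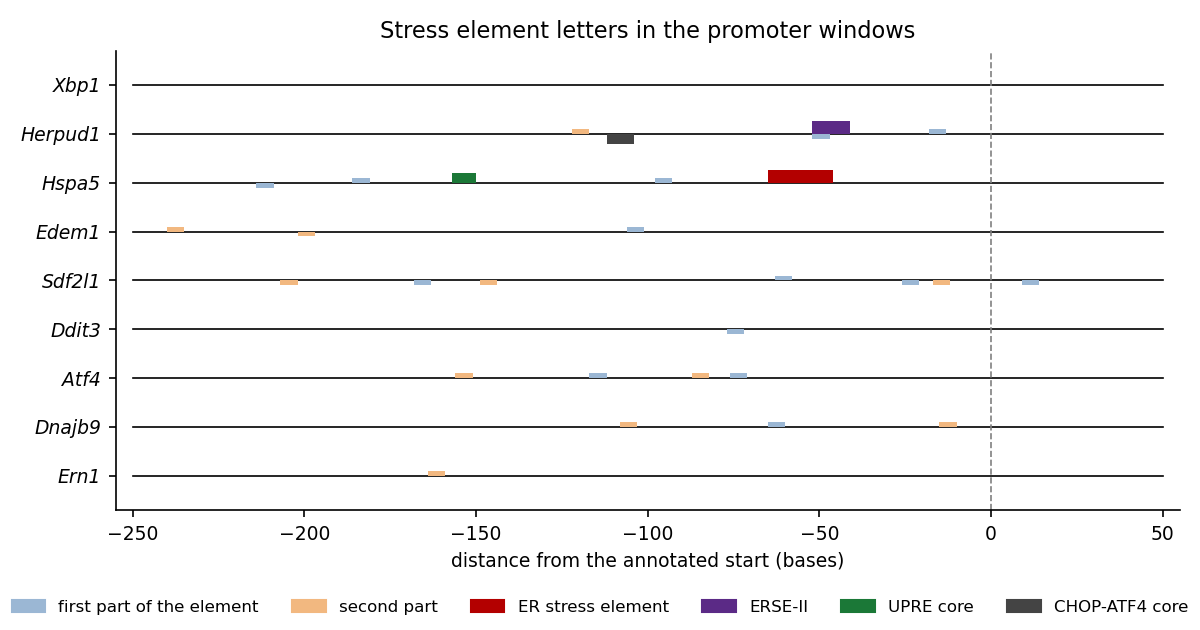
Positions of stress motifs in the promoter windows of 9 UPR genes, by distance in bases from the annotated start (dashed line), in order of level per kilobase. Boxes above a line are on the gene's strand and boxes below it on the opposite strand, and the first and second part of the element are CCAAT and CCACG. The full ERSE is in *Hspa5*, ERSE-II is in *Herpud1*, and no motif is in *Xbp1*.

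The labelled cell type was checked against its markers. All 11 pDC markers had reads, with a median of 110.4 CPM per kilobase and a summed level of 13332 CPM. The highest per kilobase were *Ly6d* (2307 CPM per kilobase), *Bst2* (1835), the sorting marker PDCA1, and *Irf7* (888), and the lowest were *Pacsin1* (13.6) and *Bcl11a* (6.88). Of the other sorting markers, *Siglech* had 110.4 CPM per kilobase and *Itgax*, which encodes CD11c and is on the conventional DC list, had 8.01.

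Plasma cells and B cells are of interest here because *Xbp1* and ER chaperones are abundant in antibody-secreting cells. Of 17 plasma cell and B cell markers, 13 had reads, with a summed level of 2123 CPM. The most abundant, the heavy chain gene *Ighm*, had 1974 of these, at 1047 CPM per kilobase. *Igkc* had 100.1 CPM per kilobase and *Sdc1*, which encodes CD138, had 7.67. Other genes of the plasma cell program also had reads, with 917 for *Sdc1*, 695 for *Irf4* and 509 for *Prdm1*. *Jchain*, *Mzb1* and *Tnfrsf17*, also plasma cell markers, were listed at 0, as was the B cell factor gene *Pax5*, and *Ebf1* (0.114) was the lowest with reads. Exons of a gene on the same strand overlap 57.2% of the exon bases of *Mzb1*. *Ighm* thus carried nearly all of the summed level, and the plasma cell markers were divided between genes with reads and genes at 0.

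Markers of other myeloid cells also had reads. The conventional DC list (10 of 11 genes with reads) summed to 2138 CPM, with *Ccl22* (579 CPM per kilobase), *Fscn1* (142) and *Clec9a* (22.5) the highest, *Clec10a* (0.813) and *Xcr1* (0.386) the lowest with reads, and *Cd209a* listed at 0. The macrophage and monocyte list (11 of 11) summed to 2005 CPM, with *Ly6c2* (434), *Cd68* (237) and *Lyz2* (158) the highest and *Mertk* (0.397) the lowest. The neutrophil, T cell and erythroid list (4 of 11) summed to 27.2 CPM, from *S100a8* (21.1), *S100a9* (18.4) and *Hba-a1* (3.49) down to *Alas2* (0.0397). In that list *Bcl11b*, *Cd3d*, *Cd3e*, *Cd3g*, *Elane*, *Hbb-bs* and *Mpo* were listed at 0. The part of these cells in the levels of the 10 UPR genes was not tested. In bulk RNA, fewer cells of a type and less RNA per cell cannot be told apart.

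**Figure D5:**
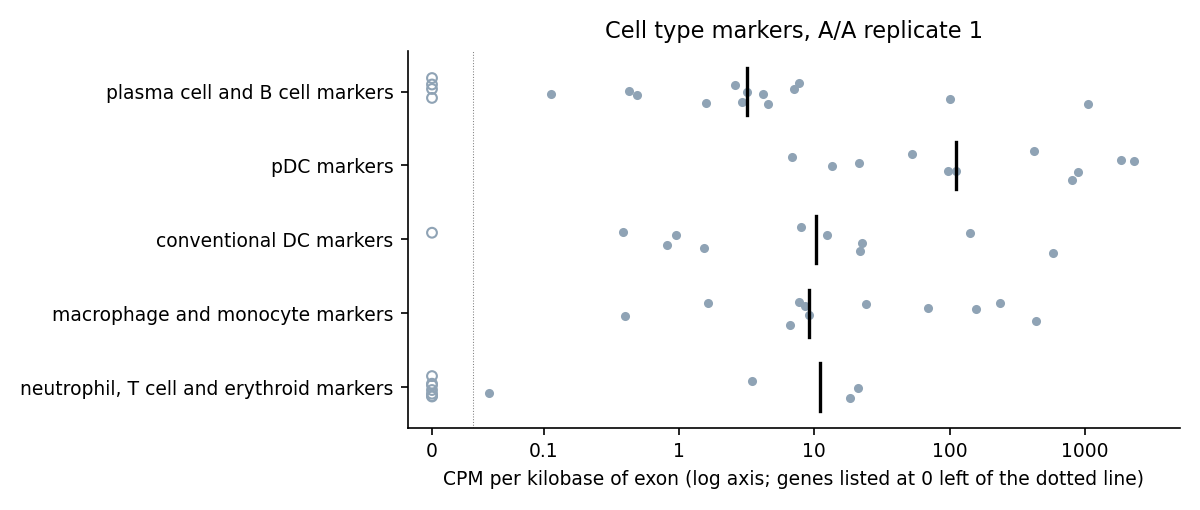
Level of each cell type marker in A/A replicate 1, in CPM per kilobase of exon on a log axis, by list. Open circles are genes listed at 0, and black bars are medians over genes with reads. The pDC markers had a median of 110.4, and 4 plasma cell and B cell markers and 7 neutrophil, T cell and erythroid markers lie at 0.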

How the data were processed

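Sorted splenic pDCs of 9 mouse samples were profiled by RNA-Seq, and 1 library, A/A replicate 1, was analysed here. In the methods, the authors describe paired-end sequencing of mRNA libraries and name DESeq2 for the genotype comparisons. HISAT2, StringTie and the builds mm8 and mm10 are named in the submitters' processing notes, without roles. Strand use and counting settings are not given in the sources used here.

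The authors deposited 1 normalized signal value per gene, with no stated unit. The unit was inferred: 100% of values above 0 were whole multiples of 1.19 (tolerance 0.01 read), the form of read counts divided by a single library factor, 0.839. Whole reads were recovered from this step. With 1 library no count test could be run. The length the authors deposited was the genomic span, in 100% of genes, and was not used. Gene identifiers matched GENCODE M21 (GRCm38) for 99.7%, and 95.2% of these had the same coordinates. *Atf4* was not among the latter. Exon length was the union of all exons. The listed gene *Mars1* was read under the symbol *Mars*, a RefSeq synonym.

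The genes named are the 10 members, 16 related genes set by name, and in each list the 3 highest and 2 lowest with reads and those at 0, apart from some genes that are not reported here. Others, among them *Sdf2*, *Siglech*, *Srpr*, *Itgax*, *Irf4*, *Prdm1*, *Ddx3y* and genes with a motif, were named outside this rule after their values were seen. The members and lists were chosen with earlier results of these data known. Recovery was tested on simulated data, but the outcome is not reported here and no level rests on it. Python 3.11.15, numpy 2.4.6, scipy 1.17.1, pandas 2.3.3 and matplotlib 3.10.9 were used. Alternatives were percentiles over all genes, over genes with at least 10 reads and over protein-coding genes, CPM without length, the longest transcript, other totals, and other motif rules.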

Additional observations from a re-analysis of the deposited data

How the results depend on the processing

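The median percentile of the 10 UPR genes was 97.4. It was 99.1 over all genes, 96.8 over genes with at least 10 reads, 96.5 over protein-coding genes, 95.3 by CPM without length and 97.1 by the longest transcript. The first of these is higher and the second lower by construction, since genes are added or removed at the low end. For the others the cause was not tested. The summed level of 4424 CPM was 4901 without the 10 highest genes in the total and 4603 with a protein-coding total, both higher because the total is smaller. Of the 9 neighbouring pairs, 8 kept their order by the longest transcript and 5 by CPM. The median of the other pathway genes, 24.2 CPM per kilobase, was 23.8 with genes at 0 included and 85.4 as CPM without length, which is another unit. The ERSE was in 1 member window, in 3 with 1 mismatch allowed (494 of all 32851 windows and 16.7% of the other pathway windows), in 2 as ERSE or ERSE-II (0.155% of all windows), and in 2 when the transcripts were searched, the last 2 settings being chosen after seeing the data. Among single genes, the percentile of *Ern1* ranged from 38.7 among protein-coding genes to 83.9 over all genes.

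No paired analysis was possible because 1 library was analysed here. For the same reason no replicate was left out and no difference between genotypes was computed. Depth limits genes with few reads, such as *Ern2* with 27 reads, for which the ratio of *Ern1* to *Ern2* per kilobase had an interval of 5.06 to 11.4.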

Other observations

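Genes of secreted products were read from a list of 22 interferon, cytokine and chemokine genes, all of which had reads in A/A replicate 1. Their summed level was 7112 CPM and their median 20.2 CPM per kilobase. The chemokine genes *Ccl5* (2803 CPM per kilobase), *Cxcl10* (919) and *Ccl22* (579) were the highest, and *Ifna11* (7.39) and *Il12a* (0.767), a subunit gene of IL-12, were the lowest. The other IL-12 subunit gene, *Il12b*, named here after its value was seen, had 150.1 CPM per kilobase. The *Ifna* genes are close paralogs, so their reads may be split among them.

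Some genes with UPR motifs in their promoter windows had few or no reads. TGACGTG was in 9 of the 108 other pathway windows (8.33%) and TGATGNAA in 15 (13.9%), and most of these genes had reads, among them *Vcp* (830 CPM) and *Srpr* (177 CPM). *Fkbp11* and *Kdelr3*, both listed at 0, held the core TGACGTG, and *Vldlr*, also listed at 0, held TGATGNAA. *Derl3*, with 104 reads, held the ERSE. These genes were singled out after their values were seen.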
